A study of Mus musculus with 6 samples.

Results

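The 9 genes described here encode the core transcription factors of beta cell identity: Pdx1, Mafa, Nkx6-1, Nkx2-2, Isl1, Pax6, Foxa2, Rfx6 and Mnx1. They were chosen by name, and each matched 1 entry among the 55487 genes of the count table. RNA had been sequenced from MIN6, a mouse insulin-secreting cell line that stands in for pancreatic beta cells in culture. They were transfected transiently with lipofectamine, and RNA was collected at most 3 days later. The PTHrP group (3 libraries) received full-length parathyroid hormone-related protein, the product of Pthlh, and the DsRed group (3 libraries) received the red fluorescent protein vector that served as the empty control. Both groups thus carried the transfection reagent and a plasmid, MIN6 is a single line, the share of cells that took up plasmid is not given in the sources used here, and no untransfected library was analysed here.

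Beta cells are kept in their state by a small set of transcription factors that bind together at enhancers of insulin and of the secretory genes. Pdx1, Nkx6-1, Nkx2-2, Isl1, Pax6 and Mnx1 bind DNA through a homeodomain, Mafa through a basic leucine zipper, Foxa2 through a forkhead domain and Rfx6 through the RFX domain. In the pancreas several of them act early to specify endocrine cells and again in the adult, where their loss lets beta cells lose insulin or take on features of other islet cells. Mafa is the latest of them to appear and marks mature beta cells.

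Pthlh separated the groups, with 697, 553 and 797 counts under PTHrP and 0, 4 and 8 under DsRed. The PTHrP counts came to 8.10, 6.50 and 8.37 CPM, CPM being the share of a library's counts scaled with TMM factors. The libraries held 84427033 to 94613684 gene counts. PTHrP replicate 2 stood apart from the other 5 libraries: its chi-square per gene against each of them was 55.5 to 68.6, while pairs of the other libraries gave 9.08 to 36.8. Where leaving it out moved a gene's log2 fold change printed below by over 1.5 times, the value without it is given too. The insulin genes Ins2 and Ins1 averaged 35887 and 6083 CPM over the 6 libraries. Among 8 measured alpha cell markers, 4 reached 1 CPM, among them Gcg at 135 to 175 CPM. The defining markers of other islet cells, Sst and Ppy, had 26 and 11 counts. Rbp4 and Etv1 of the same list were at 43.1 to 59.3 CPM and 20.4 to 55.1 CPM. The acinar genes Ptf1a and Amy2a5 were the only 2 of the 15 acinar and duct markers without counts. Summed alpha cell markers were at 327 to 414 CPM in PTHrP and 359 to 397 CPM in DsRed, and summed delta, PP and epsilon cell markers (2 of 7 at 1 CPM) at 80.0 to 107 CPM and 87.2 to 91.1 CPM. Acinar and duct markers (4 of 15) summed to 10.9 to 14.3 CPM in PTHrP and 15.0 to 17.3 CPM in DsRed, ranges that did not overlap, with Bhlha15 at 3.58 to 4.89 CPM and 5.90 to 9.07 CPM. The part of these markers in the results was not tested. Fibroblast, endothelial and immune markers (3 of 14) summed to 7.36 to 9.57 CPM and 9.09 to 10.9 CPM.

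The promoters of the set were searched for 4 short motifs. RefSeq promoter windows on GRCm38.p6 were found for 8 of the 9 factors, 11 windows in all. Mafa had no entry. The bases considered are the 250 before each annotated start. The E-box CACGTG, which reads the same on both strands, was found in 2 of the 11 windows, those of Pdx1 and Nkx2-2, against 6.02% of all 32817 windows. The Pdx1 promoter has a proximal E-box known as a site for USF factors, and whether this match is that site was not checked. Both are shown with 12 bases on each side, 5′ to 3′ on the gene's strand, with the E-box in capitals, as the only 2 of the 11 windows with this motif:
Pdx1: tccagggtaaacCACGTGgggtgccccaga
Nkx2-2: aagacccgcccaCACGTGgccaacctttgc
The Pdx1 stretch lies at chr5:147270034-147270063 on the plus strand. Its E-box starts at position -51 relative to the RefSeq start, and it falls in an exon of the longer GENCODE M21 gene model. The Nkx2-2 stretch lies at chr2:147186558-147186587 on the minus strand, its E-box starts at position -173 relative to the RefSeq start, and it falls in an intron of the longer GENCODE model. The CCAAT box (CCAAT or ATTGG) was found for Foxa2, Isl1, Mnx1, Pax6 and Pdx1, in 5 of the 11 windows against 33.8% of all windows. The homeodomain core TAATTA, which also reads the same on both strands, and the forkhead motif TGTTTAC (or GTAAACA) were found in none of the 11, against 4.85% and 3.16% of all windows. None of the 4 motifs contains another, and a match describes the letters of the window only.

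In the genome the factors lie on 5 chromosomes of the mouse build GRCm38. Nkx2-2 (chr2:147177546-147194243, minus strand) and Foxa2 (chr2:148042877-148046969, minus strand) are 848633 bases apart, and Pax6 lies on the same chromosome (chr2:105668900-105697364, plus strand). Pdx1 (chr5:147269959-147275848, plus strand), Nkx6-1 (chr5:101658139-101664996, minus strand) and Mnx1 (chr5:29473034-29478470, minus strand) share chromosome 5. Mafa (chr15:75745490-75748228, minus strand) has a single exon, Isl1 is at chr13:116298281-116309689 on the minus strand and Rfx6 at chr10:51677756-51730432 on the plus strand. All are annotated as protein-coding. Exons of Nkx2-2 overlap those of the antisense gene Nkx2-2os over 278 bases. Nkx2-2os had 2 to 18 counts per library against 7482 to 10352 for Nkx2-2. No exon of the other 8 overlaps another annotated gene.

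None of the 9 factors passed the test between PTHrP and DsRed. All 9 were measured well enough to be tested, and 0 of 9 passed with edgeR's quasi-likelihood test at an adjusted p under 0.05, where 0.0426% of the 21141 genes tested passed. None had an unadjusted p under 0.05 either, where 8.9% of all genes did, and 0 passed with DESeq2 or limma-voom. Of the 9, 5 had negative and 4 positive log2 fold changes (PTHrP minus DsRed), and the median was -0.04, beside -0.01 over all genes tested, of which 51.3% were negative. In 2 of the 9, Pdx1 and Pax6, the groups did not overlap, as in 16.3% of all genes tested. MIN6 is a bulk sample, so fewer cells with a factor and less RNA of it per cell cannot be told apart.

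**Figure D1:**
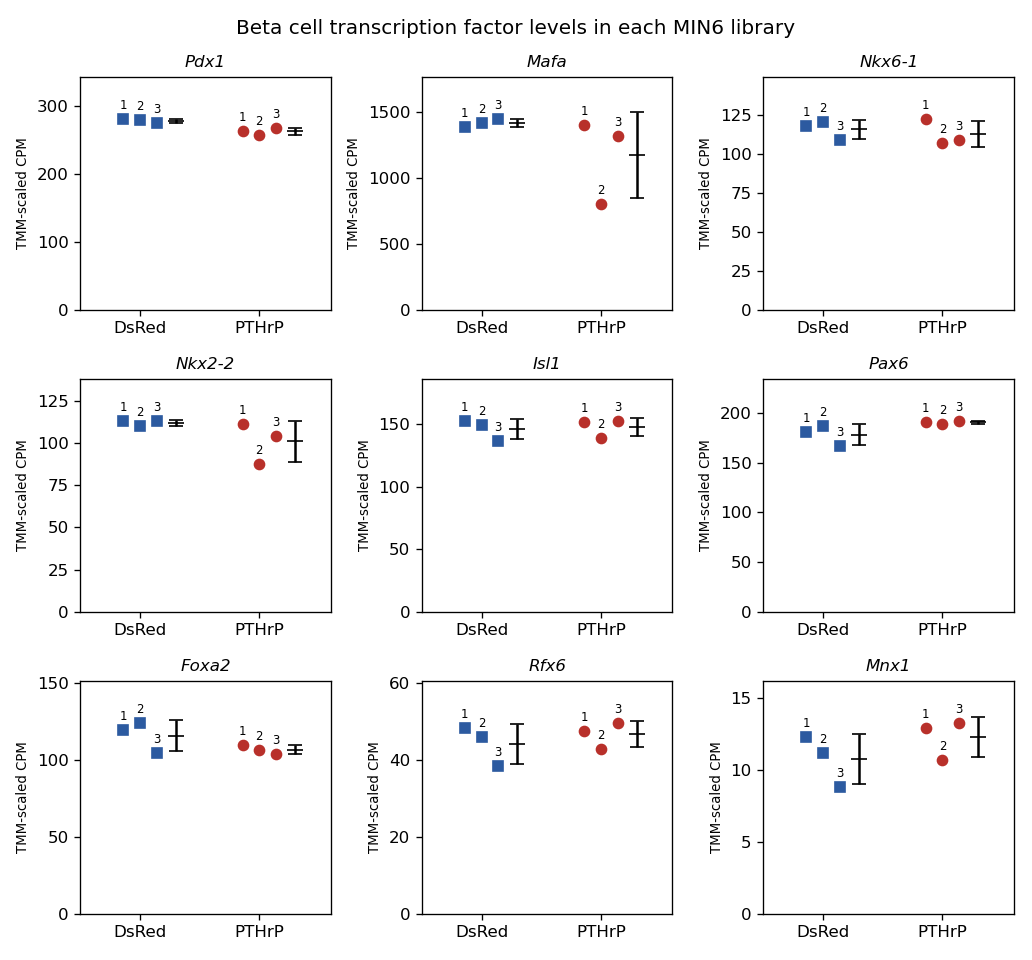
TMM-scaled CPM (vertical axes, from 0) of each factor in the 3 DsRed libraries (blue squares) and the 3 PTHrP libraries (red circles), numbered by replicate, with the mean and SD of each group in black. Mafa stands at 804 CPM in PTHrP replicate 2 and at 1319 to 1450 CPM in the other 5 libraries, while the 3 PTHrP values of Pdx1 lie just under the 3 DsRed values.

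Pdx1 is needed for the pancreas to form and activates insulin and glucose-sensing genes in the adult beta cell. It had 264, 257 and 268 CPM in the PTHrP libraries and 281, 280 and 275 CPM in the DsRed libraries. All 3 PTHrP values were below all 3 DsRed values, a pattern seen in that direction in 7.88% of all genes tested. The means were 263 ± 5.44 CPM and 279 ± 3.03 CPM (SD, n = 3). This gave a log2 fold change of -0.08, SE 0.05, with a 95% interval of -0.19 to 0.03 or a fold of 0.875 to 1.02 (adjusted p = 0.672).

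Mafa, a direct activator of insulin transcription, was the most variable of the 9 over all 6 libraries, through 1 of them. It had 1407, 804 and 1319 CPM in the PTHrP libraries and 1389, 1421 and 1450 CPM in the DsRed libraries. One library, PTHrP replicate 2, was low, at 57.6% of the mean of the other 5, and the other libraries of both groups overlapped. At that share or lower in this library stood 1.31% of the 8952 genes with at least 10 CPM on average. The group means were 1177 ± 326 CPM and 1420 ± 30.4 CPM (SD, n = 3), a log2 fold change of -0.27, SE 0.22, with a 95% interval of -0.82 to 0.28 (adjusted p = 0.787). Without PTHrP replicate 2 the log2 fold change was -0.06, with a 95% interval of -0.15 to 0.04 or a fold of 0.900 to 1.03 (adjusted p = 0.665).

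The low Mafa value was not shared by Pdx1. Per kilobase of exon, Mafa stood at 4.20, 2.46 and 3.88 times Pdx1 in the PTHrP libraries and at 3.89, 4.0 and 4.15 times in the DsRed libraries, a ratio that no scaling between libraries can move. The ratio was thus low in PTHrP replicate 2 and at 3.88 to 4.20 elsewhere. Of the genes known as Mafa targets, 3 picked after their values were seen, Ins2, Ins1 and Slc2a2, were not low in that library. How many of the other listed targets were low there was not counted. In PTHrP replicate 2 Ins2 had 36769 CPM, against 33253 to 42676 CPM in the other libraries. Ins1 had 6674 CPM there against 5434 to 7165 CPM, and the glucose transporter gene Slc2a2 had 442 CPM against 354 to 419 CPM. Ffar1, another listed target of the factors, was lowest in that library, at 172 CPM against 182 to 207 CPM. Leaving that library out moved the log2 fold change from -0.055 to -0.086 for Ins2 and from -0.055 to -0.141 for Ins1. For Slc2a2 it moved from -0.065 to -0.164. The edgeR adjusted p was then 0.861, 0.656 and 0.148.

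Nkx6-1, which represses non-beta programmes and keeps beta cells secreting insulin, differed little between the groups. It had 122, 107 and 108 CPM in the PTHrP libraries and 118, 120 and 109 CPM in the DsRed libraries. The groups overlapped throughout, with 1 high and 2 lower values under PTHrP and the reverse under DsRed. The difference was -0.04 on the log2 scale, SE 0.07, with a 95% interval of -0.19 to 0.11 (adjusted p = 0.914). It was -0.00084 without PTHrP replicate 2 (adjusted p = 0.997).

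Nkx2-2, which together with its corepressors blocks alpha and epsilon cell fates, had the lowest adjusted p of the 9. It had 112, 88.0 and 104 CPM in the PTHrP libraries and 113, 110 and 113 CPM in the DsRed libraries. The lowest value was again in PTHrP replicate 2, at 79.6% of the mean of the other 5 libraries, and PTHrP replicate 1 lay within the DsRed range. The means were 101 ± 12.1 CPM and 112 ± 1.77 CPM (SD, n = 3), a log2 fold change of -0.15, SE 0.08, with a 95% interval of -0.32 to 0.03 (adjusted p = 0.635). Without PTHrP replicate 2 it was -0.05 with an interval of -0.17 to 0.06, and without PTHrP replicate 1 it was -0.22 (adjusted p = 0.508).

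Isl1, a LIM homeodomain factor that works with Ldb1 to drive postnatal beta cell genes, had the smallest difference of the set with all 6 libraries. It had 151, 139 and 153 CPM in the PTHrP libraries and 152, 150 and 137 CPM in the DsRed libraries. Each group held 1 low library. The difference was 0.02 on the log2 scale, SE 0.06, with a 95% interval of -0.13 to 0.16, a fold of 0.917 to 1.11 (adjusted p = 0.964), and its sign depended on which library was left out. It was 0.06 without PTHrP replicate 2, and Nkx6-1, Nkx2-2 and Mafa were then nearer to 0.

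Pax6, a paired and homeodomain factor that activates insulin and prohormone processing genes, was the other factor without overlap. It had 191, 189 and 192 CPM in the PTHrP libraries and 181, 187 and 167 CPM in the DsRed libraries. The PTHrP libraries lay close together and just above the highest DsRed library, a pattern seen in that direction in 8.45% of all genes tested. The means were 191 ± 1.53 CPM and 178 ± 10.5 CPM (SD, n = 3), a log2 fold change of 0.10, SE 0.06, with a 95% interval of -0.03 to 0.23 (adjusted p = 0.675). Without DsRed replicate 3 it was 0.05 (adjusted p = 0.869).

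Foxa2 opens chromatin ahead of other factors and controls Pdx1 and the genes of the ATP-sensitive potassium channel. It had 109, 107 and 104 CPM in the PTHrP libraries and 119, 124 and 104 CPM in the DsRed libraries. DsRed replicate 3 lay with the PTHrP libraries and the other DsRed libraries above them. The difference was -0.12 on the log2 scale, SE 0.07, with a 95% interval of -0.28 to 0.04 (adjusted p = 0.666). Without DsRed replicate 3 it was -0.19 (adjusted p = 0.502).

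Rfx6 and Mnx1 were the least abundant members. Rfx6, which is required for islet formation and for calcium channel and secretion genes of the adult beta cell, had 47.5, 43.0 and 49.6 CPM in the PTHrP libraries and 48.3, 45.9 and 38.5 CPM in the DsRed libraries. The groups overlapped, and DsRed replicate 3 was the lowest. The difference was 0.08 on the log2 scale, SE 0.09, with a 95% interval of -0.13 to 0.28 (adjusted p = 0.858), and it was -0.01 without DsRed replicate 3 and 0.14 without PTHrP replicate 2.

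Mnx1, which holds beta cells apart from the delta cell fate, had 12.9, 10.7 and 13.2 CPM in the PTHrP libraries and 12.2, 11.1 and 8.82 CPM in the DsRed libraries. These rest on 807 to 1259 counts per library, the fewest of the 9. The groups overlapped, and DsRed replicate 3 was at 73.3% of the mean of the other 5 libraries. The difference was 0.19 on the log2 scale, SE 0.14, with a 95% interval of -0.11 to 0.49, a fold of 0.929 to 1.41 (adjusted p = 0.730). Without PTHrP replicate 2 it was 0.29 with an interval of 0.02 to 0.55 (adjusted p = 0.342), and without DsRed replicate 3 it was 0.07 (adjusted p = 0.936).

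**Figure D2:**
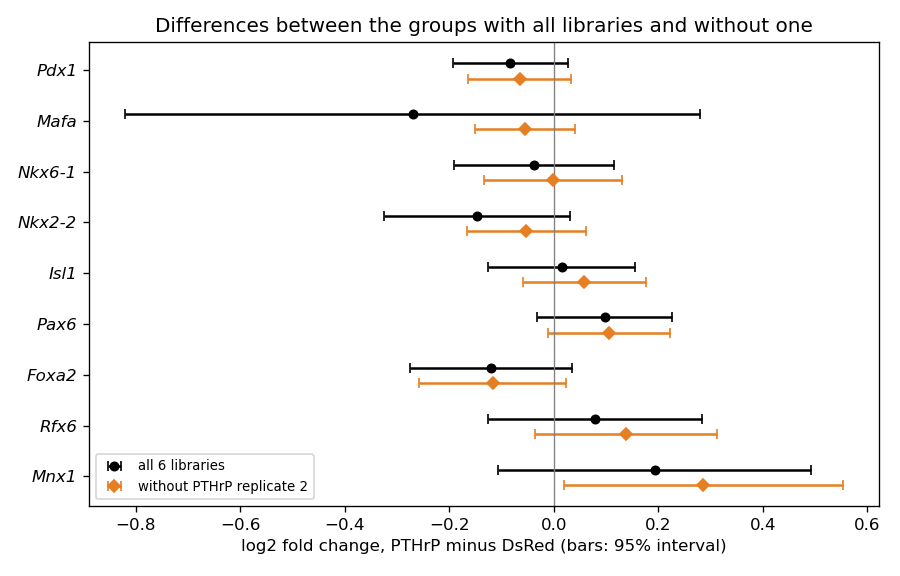
Log2 fold change, PTHrP minus DsRed (horizontal axis), of each factor with its 95% interval from all 6 libraries (black circles) and without PTHrP replicate 2 (orange diamonds). The interval of Mafa narrows from -0.82 to 0.28 to between -0.15 and 0.04, and with all libraries each of the 9 intervals includes 0.

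The spread of the factors over the 6 libraries, without regard to group, ranged widely. The SD of log2 CPM was 0.05 for Pdx1, 0.07 for Isl1 and 0.08 for Pax6, at percentiles 8.67, 22.7 and 27.8 among the 8952 genes with at least 10 CPM. It was 0.09 for Nkx6-1, 0.11 for Foxa2, 0.14 for Rfx6 and 0.14 for Nkx2-2, beside a median of 0.10 over those genes. Mnx1 (0.22) and Mafa (0.33) were at percentiles 91.5 and 97.7. With PTHrP replicate 2 left out, the SD was 0.05 for Mafa and 0.05 for Nkx2-2, at percentiles 18.1 and 15.7 of the same genes over 5 libraries, and Mnx1 was then the most variable of the 9 (0.24, percentile 98.3). Pdx1 was the steadiest with and without that library (0.04 without it).

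The 9 factors were not all lowest in the same library. In PTHrP replicate 2 all except Pax6 were below the mean of the other 5 libraries. PTHrP replicate 2 was the lowest library for 4 of them (Pdx1, Mafa, Nkx6-1 and Nkx2-2), and for 31.7% of the genes with at least 10 CPM. DsRed replicate 3 was the lowest for the other group of 4 (Isl1, Pax6, Rfx6 and Mnx1), and for 23.4% of those genes. Foxa2 was lowest in PTHrP replicate 3. In DsRed replicate 3, Mafa and Nkx2-2 were at 114% and 107% of the mean of the other 5 libraries, while Rfx6 and Pax6 were at 82.1% and 88.7%. For Mafa and Nkx2-2 that mean is pulled down by PTHrP replicate 2. Mafa had 1450 CPM in DsRed replicate 3 and 1421 CPM in DsRed replicate 2, and Nkx2-2 had 113 CPM in DsRed replicates 1 and 3. In PTHrP replicate 2, Pax6 was at 103%, and Pdx1, Nkx6-1, Isl1, Foxa2, Rfx6 and Mnx1 were at 91.4% to 95%. Summed over the 8 factors other than Mafa, the level was 1010, 941 and 992 CPM in PTHrP and 1025, 1028 and 952 CPM in DsRed, ranges that overlap.

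**Figure D3:**
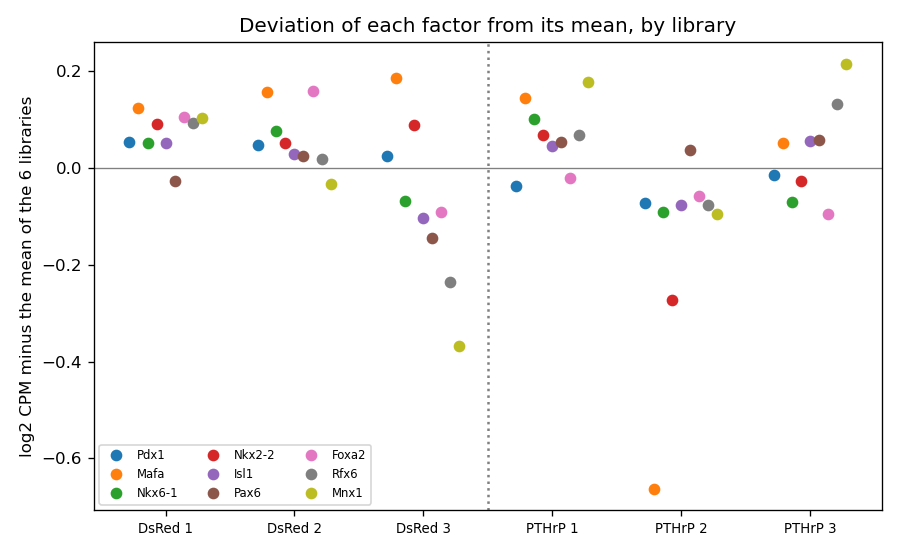
Log2 CPM of each factor minus its mean over the 6 libraries (vertical axis), by library (horizontal axis), with 1 coloured point per factor and a dotted line between the groups. Mafa and Nkx2-2 drop to -0.66 and -0.27 in PTHrP replicate 2, and Mnx1 and Rfx6 to -0.37 and -0.24 in DsRed replicate 3.

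Genes were also picked by the likeness of their profile over the libraries to that of Mafa, which was low in PTHrP replicate 2. That the closest genes were low there too follows from the choice and is no separate result. Likeness was measured as the root mean square difference of centred log2 CPM over the 6 libraries, among genes with at least 10 CPM. The 5 genes closest to Mafa were Camk2n1 (0.03), Crybg3 (0.03), Rnf44 (0.04), Braf (0.05) and Cdv3 (0.05). Camk2n1, an inhibitor of calcium/calmodulin-dependent kinase II, had 55.0, 31.3 and 53.5 CPM in PTHrP and 55.2, 57.2 and 60.3 CPM in DsRed. Braf, a kinase of the MAP kinase cascade, had 105, 60.0 and 99.5 CPM and 112, 103 and 111 CPM. Of the other core factors Nkx2-2 was the closest to Mafa, at 0.18 and place 629 of 8951 genes. Without PTHrP replicate 2, none of the 5 remained among the closest 5.

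Per length of exon, Mafa was by far the highest of the set. It averaged 474 CPM per kilobase over the 6 libraries (294 to 529), Pdx1 126 (119 to 130), Foxa2 47.0 (43.9 to 52.3), Isl1 37.1 (34.5 to 38.5), Nkx2-2 37.1 (30.6 to 39.4), Nkx6-1 36.3 (34.1 to 38.9), Pax6 15.8 (14.3 to 16.4), Rfx6 11.3 (9.59 to 12.4) and Mnx1 5.11 (3.92 to 5.88). Isl1, Nkx2-2 and Nkx6-1 overlapped in their ranges and have no order among them, while every other neighbour in the list was separate in all 6 libraries. Mafa was 3.78-fold above Pdx1 and 92.8-fold above Mnx1. It made up 60.6% to 63.2% of the summed level per kilobase of the 9 in 5 libraries and 49.8% in PTHrP replicate 2. Places in the middle depend on the length used: Pax6 has 11694 bases of merged exons but a longest transcript of 4427 bases, on which it came to 41.7 CPM per kilobase, above Nkx6-1.

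In each family with measured relatives the core factor was at the highest level per length. Of 21 related genes listed from the same families, 17 had enough counts to be tested. Maf, a relative of Mafa, had 12.2 to 17.6 CPM, or 1.72 CPM per kilobase beside 474 for Mafa. Foxa1, which acts beside Foxa2 in several tissues, and Foxa3 were at 1.45 and 0.226 CPM per kilobase. Nkx2-1, Nkx2-3 and Nkx2-5 had 6, 1 and 26 counts over all libraries. Isl2 was at 1.13 CPM per kilobase, and among the Pax genes Pax4, a repressor of the alpha cell fate, was at 7.97, Pax2 at 0.108 and Pax8 at 0.029.

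In the Nkx6 and Rfx families relatives were measured beside the core factor. Nkx6-2 was at 28.2 CPM per kilobase, close to Nkx6-1 at 36.3, while Nkx6-3 had 18 counts in all. Rfx5, Rfx3, Rfx7, Rfx1 and Rfx2 were at 4.56, 3.60, 2.49, 1.52 and 1.11 CPM per kilobase, all below Rfx6. Lhx1, a LIM homeodomain relative of Isl1, was at 10.3, and Cdx2, a homeobox gene of the intestine, at 6.34, while Gsx1 had 58 counts.

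**Figure D4:**
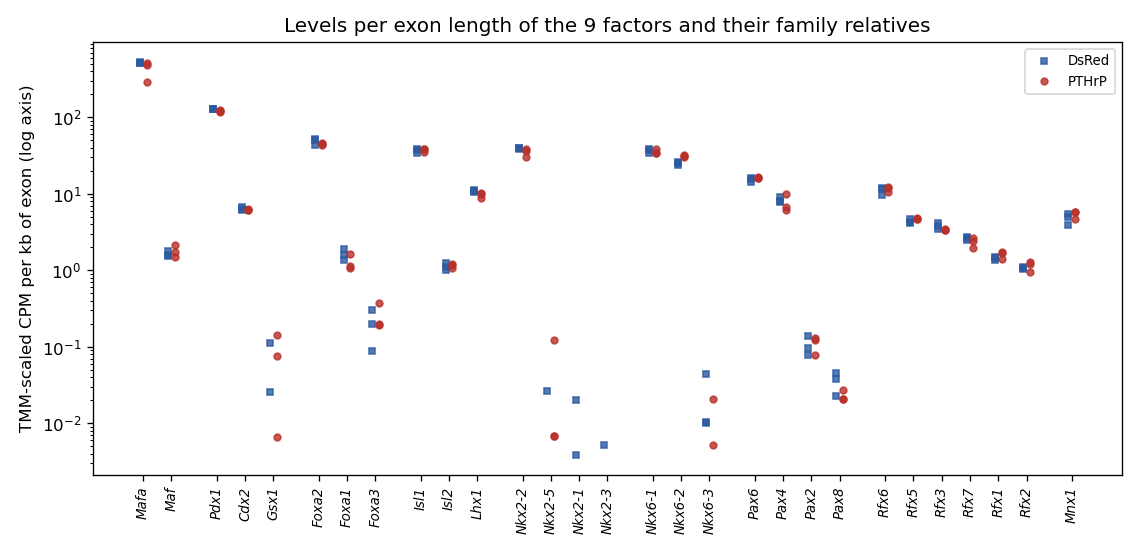
TMM-scaled CPM per kilobase of merged exon (vertical log axis) of the 9 factors and their relatives, grouped by family, in the DsRed libraries (blue squares) and the PTHrP libraries (red circles). Libraries at 0 are not drawn. The named factor is the highest of each family, with Nkx6-2 near Nkx6-1. Pax4 is at 7.97 beside 15.8 for Pax6, which is at 41.7 CPM per kilobase on its longest transcript.

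No family relative passed the test with all libraries. Of the 17 tested, 0 passed with edgeR, beside 0.0426% of all genes (1 had an unadjusted p under 0.05, where 8.9% of all genes did). The median log2 fold change was 0.08 over the 17, and -0.0038 over the 12 of them with at least 1 CPM on average. Nkx6-2 had the smallest p. It had 57.7, 59.6 and 62.1 CPM in the PTHrP libraries and 49.5, 48.2 and 45.7 CPM in the DsRed libraries, so the groups did not overlap. Its log2 fold change was 0.32, SE 0.07 (adjusted p = 0.202), and without PTHrP replicate 2 it passed at 0.33 (adjusted p = 0.0229), in a fit where 0.954% of all genes passed. The difference was thus about the same with and without that library. The next by p were Lhx1 (-0.16), Rfx3 (-0.16) and Foxa1 (-0.32), with adjusted p from 0.567 to 0.661, and Foxa1 was at -0.21 without PTHrP replicate 2. The others above 1 CPM, Rfx1, Rfx2, Rfx5, Rfx7, Cdx2, Pax4, Isl2 and Maf, had log2 fold changes from -0.16 to 0.17 with all libraries. Leaving out PTHrP replicate 2 put Pax4 at -0.38, Rfx7 at -0.04 and Isl2 at -0.0035, while Rfx1, Rfx2 and Maf were then at 0.26, 0.24 and 0.23, with adjusted p of 0.149 or more for each.

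No call was made among other islet transcription factors with all libraries. Of 30 listed, 24 were tested and none passed, beside 0.0426% of all genes. In edgeR 5 had an unadjusted p under 0.05, beside 8.9% of all genes, and the median log2 fold change was -0.06. St18, a zinc finger factor of the Myt family, had 317, 325 and 305 CPM under PTHrP and 412, 394 and 397 CPM under DsRed, and Neurod1, a basic helix-loop-helix activator of insulin, had 416, 417 and 392 CPM and 496, 468 and 460 CPM. Both were below the DsRed range in every PTHrP library, as were 7.88% of all genes tested. In edgeR both missed the threshold (adjusted p = 0.0604 and 0.303) but passed without PTHrP replicate 2 (-0.36, adjusted p = 0.000989, and -0.23, adjusted p = 0.0375). In that fit 0.954% of all genes passed. Tshz1, a zinc finger factor linked to beta cell maturity, had 901, 731 and 497 CPM under PTHrP and 455, 346 and 342 CPM under DsRed. The groups did not overlap but were widely spread within, and the difference was 0.90 on the log2 scale, SE 0.25 (adjusted p = 0.427). Mlxipl, the glucose-responsive factor ChREBP, had 291 ± 30.2 CPM and 343 ± 36.9 CPM (SD, n = 3), a log2 fold change of -0.24 (adjusted p = 0.487), which was -0.15 without PTHrP replicate 2.

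Partner proteins of the factors did not pass either. All 34 in the list that have an entry were tested and 0 passed, beside 0.0426% of all genes. In edgeR 5 had an unadjusted p under 0.05, beside 8.9% of all genes, and the median was -0.02. The 4 with the smallest p were Pcif1, a cap methyltransferase whose symbol was also used for the Pdx1-binding protein Spop (0.20), Tle1, a Groucho corepressor (0.21), Psmd9, the proteasome chaperone also known as Bridge-1 (0.19), and Smarca2, a chromatin remodelling ATPase (-0.13). Their adjusted p lay between 0.370 and 0.535, and Psmd9 was at 0.12 without PTHrP replicate 2. Tle1 had 115, 103 and 113 CPM in PTHrP and 97.8, 96.4 and 92.4 CPM in DsRed. Tle1 and Pcif1 passed without PTHrP replicate 2, at 0.26 (adjusted p = 0.0281) and 0.24 (adjusted p = 0.0413), in a fit where 0.954% of all genes passed.

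No listed target gene of the factors passed with all libraries. Of 42 measured, 41 were tested and 0 passed, beside 0.0426% of all genes. In edgeR 4 had an unadjusted p under 0.05, beside 8.9% of all genes. The median log2 fold change was -0.04, with 17 positive and 24 negative. Kcnj11, the channel subunit controlled by Foxa2, was the nearest. It had 32.4, 30.5 and 32.0 CPM in PTHrP and 22.9, 23.5 and 22.8 CPM in DsRed, groups well apart, and the difference was 0.46 on the log2 scale, SE 0.07 (adjusted p = 0.0711). The prohormone convertase gene Pcsk1 (-0.21) and the fatty acid receptor gene Ffar1 (-0.17) followed, with adjusted p = 0.374 and 0.388. With PTHrP replicate 2 left out, Kcnj11 (0.48, adjusted p = 0.00379) and the axon guidance receptor gene Robo2 (0.28, adjusted p = 0.0221) passed, beside 0.954% of all genes.

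**Figure D5:**
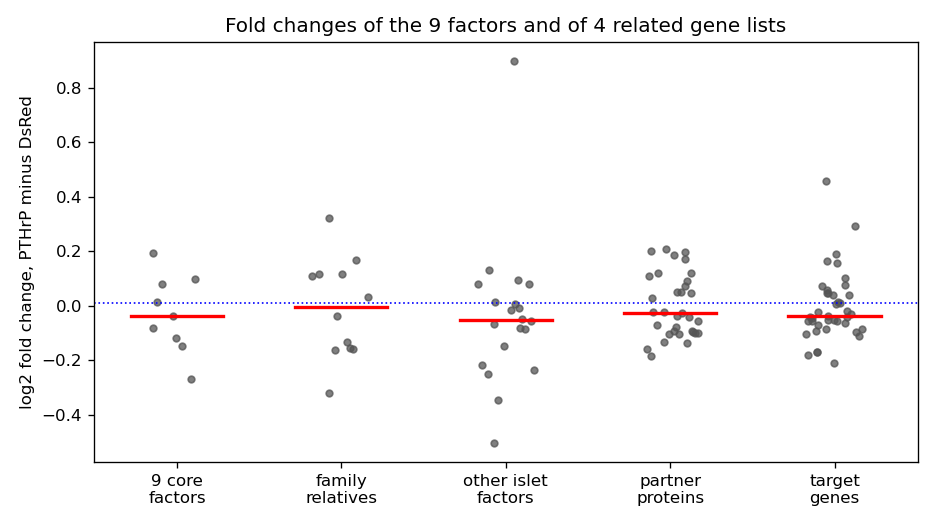
Log2 fold change, PTHrP minus DsRed (vertical axis), of each gene with at least 1 CPM on average in the 9 core factors and in 4 related lists (horizontal axis), with the list's median as a red line and the median of all such genes as a dotted line. The core factors span -0.27 (Mafa) to 0.19 (Mnx1), and Tshz1 at 0.90 is the highest point drawn.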

How the data were processed

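The authors deposited raw counts per gene for 6 libraries. Per the submitters' processing notes, they used bcl2fastq, STAR, Subread and featureCounts 2.0.3 with the mouse build GRCm38. The annotation, strand setting and multi-mapping rule were not given in the sources used here.

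Groups and replicate numbers came from the titles. Nothing says that replicates were separate cultures, so the p-values cover the spread between these samples alone, and that spread may be technical. From 55774 entries 287 repeats with identical counts were removed. Genes were kept by filterByExpr (21141) and tested with edgeR 4.0.16 (R 4.3.3): TMM factors, robust quasi-likelihood F-test, group term alone, two-sided, Benjamini-Hochberg adjustment over all genes, threshold 0.05. SEs (fold change over root F) and the 95% intervals from them are approximate. Log2 CPM carry a prior count of 2. Exon lengths and positions came from GENCODE M21, promoters from RefSeq (GRCm38.p6). The fit was tested on simulated data.

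The alternatives tried were DESeq2 1.42.0, limma-voom (limma 3.58.1), upper-quartile or RLE factors, unscaled library sizes, no count filter, a filter of 1 CPM in 3 libraries, a replicate block, longest-transcript lengths and each library left out. The 9 genes and all lists were chosen with earlier results of these data known. Named genes are Pthlh, the 9, the 4 smallest p of each list, relatives above 1 CPM and the 5 genes most like Mafa. Genes passing without PTHrP replicate 2, markers, and relatives at low level were named after their values were seen. A few listed genes are not reported here.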

Additional observations from a re-analysis of the deposited data

How the results depend on the processing

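In 122 of 126 refits of single factors (14 alternatives for each of the 9) the direction and the side of the threshold were those of all 6 libraries, and no factor passed in any. The 4 others turned sign near 0: Isl1 was at -0.0036 without PTHrP replicate 1, -0.0104 without PTHrP replicate 3 and -0.0315 without DsRed replicate 3, and Rfx6 at -0.0120 without DsRed replicate 3. Leaving out single libraries moved Isl1 between -0.0315 and 0.0581 and Rfx6 between -0.01 and 0.14. An unadjusted p under 0.05 in edgeR appeared for 1 factor in each of 3 fits: Nkx2-2 without PTHrP replicate 1, Mnx1 without PTHrP replicate 2 and Foxa2 without DsRed replicate 3.

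Over all genes 9 passed, against 14 with library sizes alone, 220 without a filter, 136 with DESeq2 and 2 to 213 when 1 library was left out (213 without PTHrP replicate 2), and the cause was not tested. Without PTHrP replicate 2 the listed genes that passed were 1 of 17 family relatives, 2 of 25 islet factors, 2 of 34 in the partner list (Tle1 and Pcif1) and 2 of 42 targets, beside 0.954% of all genes in that fit, and against 0 in each list with it. On longest-transcript lengths Isl1 took place 3, Foxa2 4, Pax6 6 and Nkx6-1 7 in the order of levels; without PTHrP replicate 2, Nkx2-2 took place 4 and Isl1 place 5. Without it the SD over the libraries, an alternative chosen after seeing the data, fell to 0.05 for Mafa and for Nkx2-2. Of the 5 genes most like Mafa, 0 were shared without PTHrP replicate 2.

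Same-numbered libraries of the groups deviated together with correlations of 0.02, -0.11 and 0.02, and not every library deviated most like the one of its own number, so the numbers were not taken as pairs. With the replicate block 7 genes and 0 of the 9 factors passed. With 3 libraries per group the intervals given for each factor set what could be seen, and they are widest for Mafa and Mnx1.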
